A study of Mus musculus with 6 samples.

Results

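Ribosome biogenesis genes that MYC proteins are known to drive were followed across leukaemia cells with and without functional Cdh1. The set had 33 named genes, chosen by symbol, and each was read from a single probe set, that of highest mean among the probe sets annotated with exactly 1 symbol. Of the 33 genes 32 could be read in this way, out of 18193 genes on the arrays. Mrto4, a ribosome assembly factor of the large subunit, shares its probe set with other symbols and was not analysed here.

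Ribosomes are built in the nucleolus. RNA polymerase I transcribes a long precursor RNA, small nucleolar ribonucleoproteins (snoRNPs) modify it and guide its cleavage, and separate sets of assembly factors turn it into the small (40S) and large (60S) subunits. MYC and N-myc are transcription factors known to raise expression of many of these genes, together with translation factors and the enzymes of polyamine synthesis, and growing lymphoid cells carry large nucleoli.

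Total RNA was measured on one-colour expression arrays, 1 array for each of 6 moribund mice with B-cell acute lymphoblastic leukaemia induced by N-myc. The labels give 3 as Cdh1-intact and 3 as Cdh1-deficient, called intact arrays 1 to 3 and deficient arrays 1 to 3 below, and values are listed in that order. The donors of both groups were homozygous for a conditional gene-trap allele of Cdh1 (Cdh1f/f) on a C57BL/6 background and came from the same litters, without Mx1-Cre in one genotype and with it in the other. Mx1-Cre is an interferon-inducible recombinase that is not restricted to B cells, and both genotypes received its inducer pIpC at 7 to 8 weeks of age. Marrow was taken 4 weeks after the last pIpC injection and 2 days after 150 mg/kg 5-fluorouracil, the N-myc cDNA was carried by the retroviral vector pMXs-IG, and RNA came from sorted GFP-positive marrow mononuclear cells. N-myc was thus forced in both groups, so the comparison asked how these genes differed without Cdh1 in cells that all received the oncogene. Cdh1 is here the activator of the anaphase-promoting complex, encoded by the mouse gene Fzr1.

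Fzr1 itself lay at 8.92, 8.04 and 8.92 on intact arrays 1 to 3 and at 8.10, 7.73 and 8.22 in the deficient group (log2), which overlapped, and its probes' place relative to the gene trap is not known here. Mycn, which encodes N-myc, read 13.41, 13.13 and 13.51 on the intact arrays and 13.49, 13.68 and 13.70 in the deficient group, with a log2 difference of 0.27 (SE 0.14). Myc lay between 3.78 and 4.35 on the 6 arrays. The array labelled Cdh1-intact 2 did not carry the B-cell markers that its label calls for. Of 9 B-cell markers 8 were lowest there, with a list mean of 4.97 against 8.75 to 9.39 on the other arrays. Of 9 T and NK cell markers 7 were highest there, with a list mean of 9.26 against 4.84 to 6.64. The mean of 6.64 was that of intact array 3, against 4.84 to 4.88 on the deficient arrays. Cd3d, Cd3g and Gzma read 8.69, 7.95 and 8.33 on intact array 3, above every deficient array, while Gzmb and Klrd1 did not separate in this way. The B-cell list mean of intact array 3 was 9.39, the highest of the 6 arrays. The mean of 10 neutrophil markers was 6.00 on intact array 2 against 9.14 to 11.40, and all 10 were highest on deficient array 2. Of 6 erythroid markers 3 were highest on intact array 1, where the list mean was 7.61 against 5.94 to 6.72. Another of the 6, Tfrc, also a gene of the set, was lowest on intact array 1. For each gene of the set that was lowest on intact array 2, the difference is therefore also given without that array. In bulk samples fewer cells of a type and less RNA per cell cannot be told apart.

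Sequences at the starts of these genes were examined for the canonical E-box CACGTG, the palindrome that MYC and MAX bind as a pair. The RefSeq promoter windows of build GRCm38.p6, from 250 bases before to 50 bases after a start site, covered 28 of the 33 genes in 33 windows. Npm1, Fbl, Bop1, Rrp12 and Srm had no window. At least 1 CACGTG stood in a window of 9 of the 28 genes (32.1%). The share was 10.2% of 14452 genes measured on the arrays and 8.09% of all 27025 genes with a window. These genes were listed as MYC-driven, so the higher share is not independent of how they were chosen, and a match is a description of the letters and not a bound site. The stretches upstream of the start sites that hold the motif are printed because they show where it stands in each gene, with the E-box in capitals and the gene's own strand 5′ to 3′. The cap-binding factor gene Eif4e holds 2, near the ends of a stretch from 240 to 47 bases upstream of the second of its listed starts. Nme1 has 1 before each of 2 listed starts, and the other 4 genes have 1 each.
Apex1, chr14:50924913-50924942, plus strand: gcgctccagaacCACGTGggggcggagccc
Eif4a1, chr11:69672595-69672624, minus strand: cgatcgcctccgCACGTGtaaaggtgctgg
Eif4e, chr3:138527028-138527221, plus strand: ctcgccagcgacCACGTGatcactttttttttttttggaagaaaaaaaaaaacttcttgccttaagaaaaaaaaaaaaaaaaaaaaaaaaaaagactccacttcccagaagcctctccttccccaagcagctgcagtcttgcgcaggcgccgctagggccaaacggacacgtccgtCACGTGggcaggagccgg
Imp4, chr1:34439696-34439725, plus strand: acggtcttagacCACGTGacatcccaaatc
Nme1, first stretch, chr11:93968037-93968066, minus strand: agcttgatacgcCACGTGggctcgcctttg
Nme1, second stretch, chr11:93968273-93968302, minus strand: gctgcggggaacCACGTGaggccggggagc
Nop2, chr6:125131811-125131840, plus strand: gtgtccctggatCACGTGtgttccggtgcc

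Pes1, Utp20 and Wdr43 had the motif only at or after the start site, as did the other copies in Apex1, which held 3 in its window, and those stretches are not printed. Gar1 and Polr1b, whose values separate the groups below, had no CACGTG in their windows. The 100 bases before their start sites are shown for contrast.
Gar1, chr3:129831397-129831496, minus strand: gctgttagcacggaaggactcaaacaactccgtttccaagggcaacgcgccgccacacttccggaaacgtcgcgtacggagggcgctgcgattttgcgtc
Polr1b, chr2:129100896-129100995, plus strand: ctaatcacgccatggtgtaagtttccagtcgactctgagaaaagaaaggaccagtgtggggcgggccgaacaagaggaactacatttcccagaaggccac

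The 9 genes with an E-box had a median log2 difference of 0.06 between the groups, with 7 of 9 above 0. The 18 measured genes with a window and no E-box had a median of 0.11, with 15 of 18 above 0. The genes with the motif thus did not have the larger median, and this contrast was not tested.

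No gene of the set passed the test between the groups. By limma, 0 of the 32 genes had an adjusted p under 0.05, where 0% of all 18193 genes did, and the lowest adjusted p in the set was 0.849. All differences are log2 values of the deficient group less those of the intact group, with limma's standard error (SE). At an unadjusted p under 0.05 there were 2 of the 32, Eif4e and Gar1, both with a positive difference, and 5.50% of all genes. The genes below are therefore described by their values.

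The set leaned upward by a small amount. The difference was above 0 for 26 of 32 genes and for 50.9% of all genes, with a median of 0.10 in the set and 0.0034 over all genes. Single differences ran from −0.23 for Pa2g4 to 0.60 for Polr1b. Genes read at a like array level leaned the same way. Among the 1531 genes between the lower and the upper quartile of the set's mean values (10.20 and 12.37), 61.2% had a positive difference and the median was 0.07. Some genes of the set are among these 1531, and this comparison has no test.

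**Figure D1:**
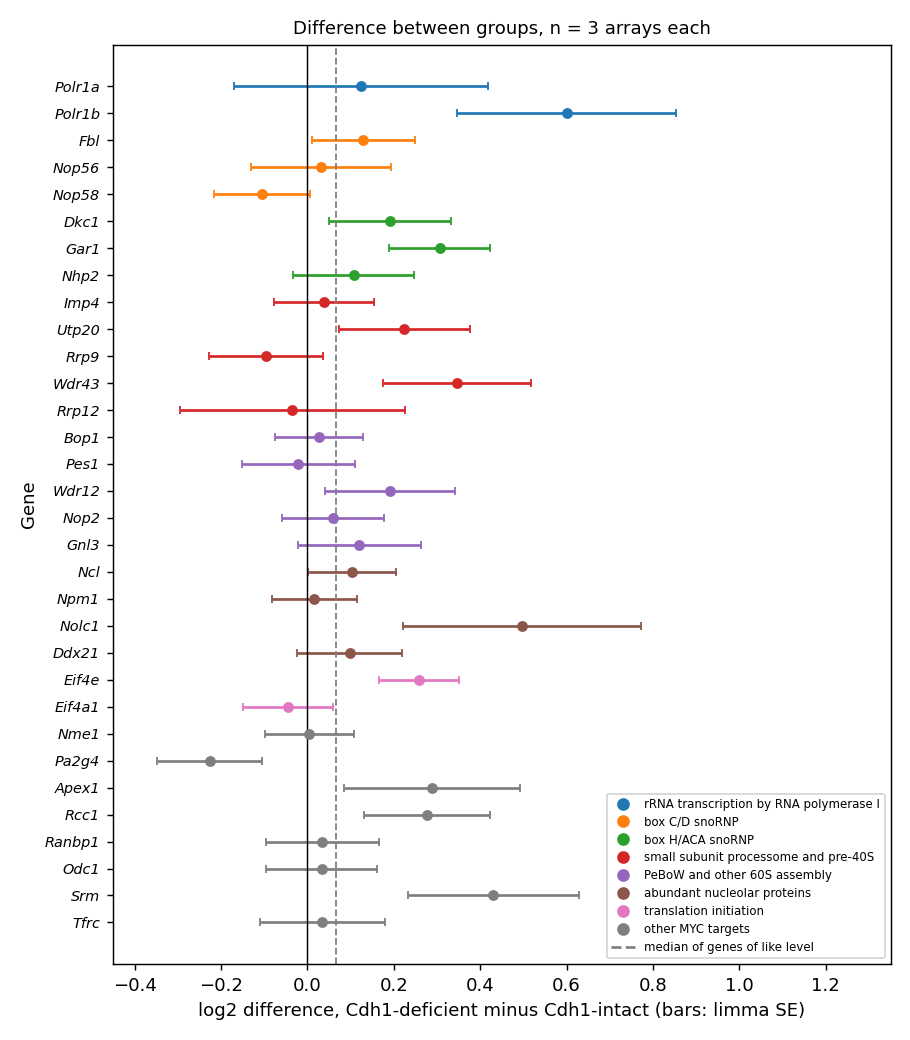
Log2 difference of each of the 32 measured genes (x axis, deficient less intact group, n = 3 arrays each, bars limma SE), coloured by role, with a dashed line at the median of genes of like array level (0.07). Polr1b, Nolc1, Srm and Wdr43 lie farthest to the right and Pa2g4 farthest to the left.

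Mean values of the set by array were 11.27, 11.19 and 11.36 for intact arrays 1 to 3, and 11.39, 11.37 and 11.44 for the deficient arrays. The 3 deficient means lay above the 3 intact means, by 0.011 at the closest pair, intact array 3 and deficient array 2. Genes of like level had means of 10.99, 10.87 and 11.09 against 11.07, 11.07 and 11.10, and were likewise lowest on intact array 2. Over all genes the deficient means too lay above the intact means, at 6.49, 6.49 and 6.49 against 6.43, 6.44 and 6.48. For the 30 measured genes of the set not on chromosome 3 the means overlapped, with 11.35 on intact array 3 and 11.34 on deficient array 2. Of the 32 genes 15 were lowest on intact array 2 (46.9%), against 24.0% of all genes and 31.6% of genes anywhere within the set's range of levels. None was lowest on deficient array 3, where 14.7% of all genes and 7.2% of genes within the set's range of levels had their lowest value. Intact array 3 was highest for 9 of the 32 genes (28.1%), against 15.0% of all genes and 19.3% of genes within the set's range of levels. The deficient arrays were highest for 4, 8 and 6 genes. Without intact array 2 the set's median was 0.033 with 22 of 32 above 0, and the median of genes of like level was 0.033. The marker values of that array move with this result, and apart from leaving the array out their part in it was not tested.

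**Figure D2:**
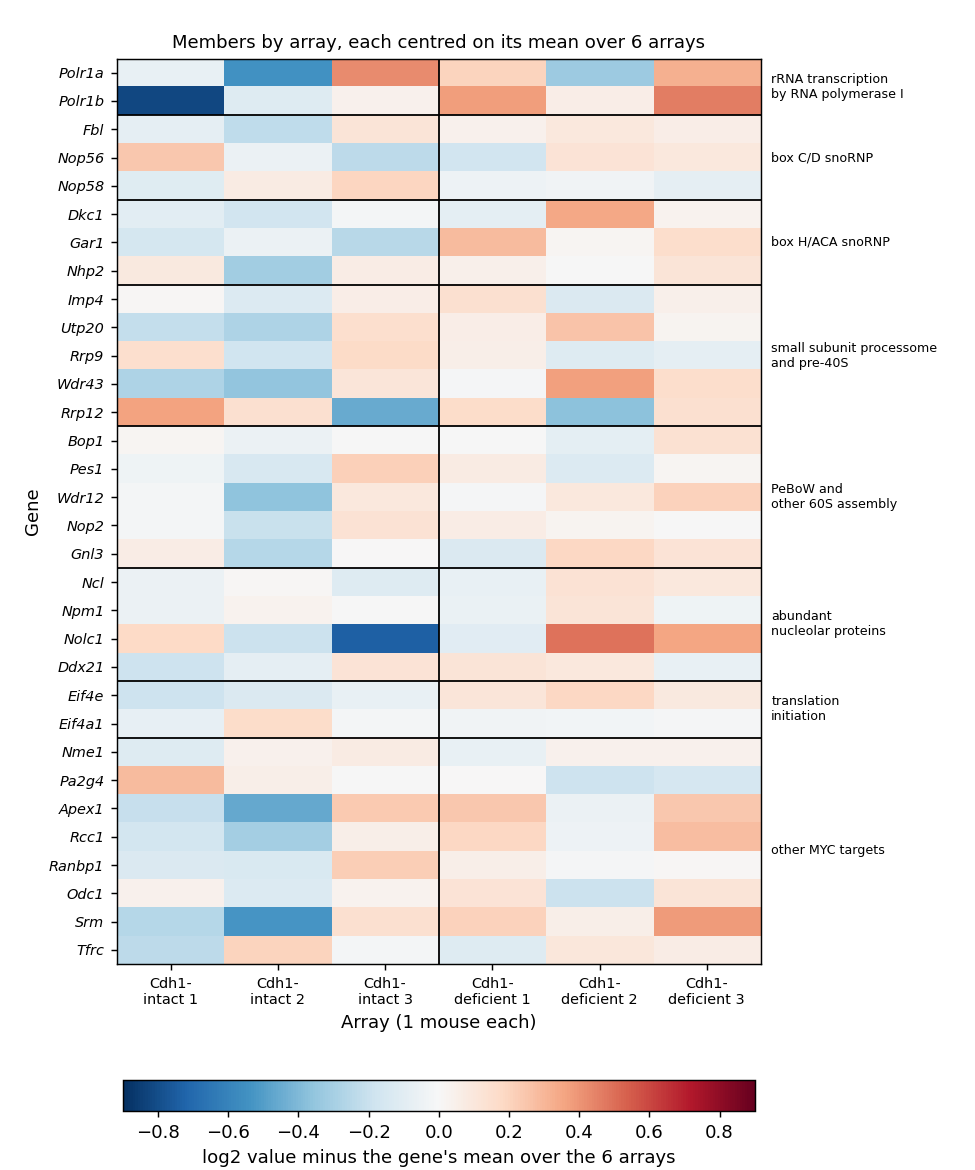
Log2 value of each measured gene (rows, grouped by role) on each array (columns, 1 mouse each), after subtracting the gene's mean over the 6 arrays (colour scale, log2). Low values gather in the column of intact array 2, while Polr1b on intact array 1 and Nolc1 on intact array 3 are the lowest single fields.

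For 3 of the 32 genes all deficient arrays lay above all intact arrays, and for 0 genes did they lie below. Over all genes the groups were apart for 11.7%, with 6.65% upward and 5.09% downward, and among genes of like level for 15.3%. Counting both directions, the share of the set (9.38%) was near that of all genes and below that of genes of like level. The 3 genes were Eif4e, Gar1 and Polr1b. Eif4e and Gar1 both lie on chromosome 3. Of 446 genes there at or above the median level of all genes 85.9% had a positive difference and the median was 0.31. On the other chromosomes these values were 61.3% and 0.08, or 59.4% and 0.06 with chromosome 5 also left out. The groups were apart for 33.6% of the 446 genes, against 12.9% on the other chromosomes and 10.8% with chromosome 5 also left out. When chromosomes 3 and 5 were left out, Polr1b was the 1 gene of the set left with groups apart, among 30 genes, where 10.2% of all remaining genes were apart. Without intact array 2 the groups were apart for 4 of 32 genes and for 21.4% of all genes.

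Eif4e encodes the protein that binds the cap of messenger RNAs to start translation. It lay at 11.64, 11.70 and 11.76 in the intact group and at 11.94, 12.01 and 11.91 in the deficient group. The groups were apart by 0.16 with little spread in either, and the difference was 0.26 (SE 0.09, adjusted p = 0.849). It stayed between 0.23 and 0.29 whichever array was left out. Its probe sets of mean 9.90 and 7.52 gave 0.24 and 0.33, while 1 of mean 4.98 gave −0.35.

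Eif4a1, the RNA helicase that works with the cap-binding protein, lay at 12.76, 13.00 and 12.82 on intact arrays 1 to 3 and at 12.81, 12.81 and 12.83 in the deficient group. Intact array 2 was the highest and the other 5 arrays were close together. The difference was −0.05 (SE 0.10), or 0.03 without that array. The initiation partners thus had differences of opposite sign, and that contrast was not tested.

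RNA polymerase I is represented by the genes of its largest subunit, Polr1a, and of its second largest, Polr1b. Polr1b lay at 8.15, 8.85 and 9.01 on the intact arrays and at 9.35, 9.03 and 9.44 in the deficient group. The groups were apart, but by 0.024 between intact array 3 and deficient array 2, and intact array 1 was far below the rest. The difference of 0.60 (SE 0.25) was the largest of the set and became 0.34 without intact array 1. Polr1a lay at 8.92, 8.45 and 9.42 in the intact group and at 9.19, 8.66 and 9.31 in the deficient group. The groups overlapped throughout, with the lowest value on array 2 of either group. Its difference was 0.12 (SE 0.29), or −0.12 without intact array 2, −0.0044 without deficient array 3 and −0.06 when its 5 probe sets were averaged.

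The box H/ACA snoRNPs, which guide pseudouridylation of ribosomal RNA, had positive differences for the 3 of their proteins that are in the set. The further core protein gene Nop10, read in the wider list described below, had a difference of −0.05 (SE 0.11). Gar1 lay at 11.37, 11.47 and 11.27 on intact arrays 1 to 3 and at 11.81, 11.54 and 11.68 in the deficient group. The groups were apart by 0.07 at the nearest pair and the difference was 0.31 (SE 0.12). Dkc1, the pseudouridine synthase dyskerin on the X chromosome, went from 11.84 ± 0.08 to 12.04 ± 0.22 (SD, n = 3 each), with deficient array 2 (12.29) above the other 5. Its difference of 0.19 was 0.15 without intact array 2 and 0.07 without deficient array 2. Its 3 probe sets disagreed, at 0.19, 0.07 and −0.15. Nhp2, a core protein of these particles, went from 12.59 ± 0.23 to 12.69 ± 0.06 (SD, n = 3 each), with the low value of 12.33 on intact array 2. Its difference of 0.11 turned to −0.02 without that array.

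The box C/D snoRNPs, which guide methylation of ribosomal RNA, showed no common direction. Fbl, the methyltransferase fibrillarin, lay at 12.75, 12.60 and 12.94 on the intact arrays and at 12.86, 12.92 and 12.89 in the deficient group. The groups overlapped, with the highest value on intact array 3 and the lowest on intact array 2. The difference was 0.13 (SE 0.12), or 0.05 without intact array 2 and 0.22 without intact array 3. Nop58 lay at 11.63, 11.81 and 11.93 against 11.69, 11.71 and 11.66, a difference of −0.11 (SE 0.11) with the lowest value in the intact group. Its partner in the particle, Nop56, differed by 0.03 (SE 0.16), with its highest value (12.75) on intact array 1 and its lowest (12.27) on intact array 3.

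Factors of the small subunit processome and of the pre-40S particle were mixed, with 3 of 5 above 0. Wdr43, a processome protein, lay at 10.67, 10.60 and 11.06 in the intact group and at 10.94, 11.32 and 11.11 in the deficient group. The groups overlapped through intact array 3 alone. The difference was 0.35 (SE 0.17) in the probe set used and 0.04 in its other probe set, so that the size depended on the probes. Without intact array 2, where Wdr43 was lowest, its difference was 0.26. Utp20, a processome scaffold, went from 9.63 ± 0.23 to 9.85 ± 0.13 (SD, n = 3 each), a difference of 0.22, or 0.14 without intact array 2. Imp4, a U3 snoRNP protein, went from 10.11 ± 0.09 to 10.15 ± 0.14 (SD, n = 3 each). Its difference was 0.04 in the probe set used, while its other probe sets gave 0.32 and 0.18. Rrp9, which binds the U3 snoRNA, lay at 9.66, 9.34 and 9.69 on intact arrays 1 to 3 and at 9.56, 9.40 and 9.44 in the deficient group, and the lowest value of all was again on intact array 2. Its difference was −0.10 (SE 0.13), or −0.21 without that array. Rrp12, which acts in export of pre-ribosomes, lay at 8.49, 8.27 and 7.68 against 8.30, 7.76 and 8.28. The spread within each group exceeded its difference of −0.03 (SE 0.26), which turned to 0.14 without intact array 1 or deficient array 2 and to 0.03 without intact array 2.

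Large subunit assembly genes had small differences, from −0.02 to 0.19, with 4 of 5 measured above 0. Pes1, Bop1 and Wdr12 encode the 3 proteins of the PeBoW complex, which is needed to process the large subunit's RNA. Pes1 lay at 10.73, 10.63 and 10.99 on the intact arrays and at 10.84, 10.65 and 10.79 in the deficient group, so that both extremes were intact arrays. Its difference of −0.02 (SE 0.13) turned to 0.08 without intact array 3 and to 0.03 without deficient array 2, and was −0.10 without intact array 2. Bop1 went from 9.83 ± 0.04 to 9.86 ± 0.11 and Wdr12 from 11.14 ± 0.24 to 11.33 ± 0.11 (SD, n = 3 each). Wdr12 read 10.87 on intact array 2 and between 11.21 and 11.44 on the other 5, and its difference of 0.19 was 0.06 without that array. Nop2, an RNA methyltransferase of the nucleolus, differed by 0.06 (SE 0.12) and Gnl3, the nucleolar GTPase nucleostemin, by 0.12 (SE 0.14). Both had their lowest value on intact array 2, and without it their differences were −0.03 and 0.02.

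The abundant nucleolar proteins all had positive differences, of very unequal size. Npm1, the histone chaperone nucleophosmin, lay at 13.35, 13.43 and 13.40 in the intact group and at 13.34, 13.52 and 13.37 in the deficient group. All 6 values lay within 0.18 of each other, and the difference was 0.02 (SE 0.10), with its sign turning to −0.0049 without intact array 1 and to −0.04 without deficient array 2. Ncl, nucleolin, lay at 12.90, 12.97 and 12.84 against 12.89, 13.09 and 13.05, a difference of 0.10 (SE 0.10) with the groups overlapping at deficient array 1. Ddx21, a helicase of ribosomal RNA processing, differed by 0.10 (SE 0.12), but its other probe set gave −0.22.

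Nolc1, a chaperone of snoRNPs in the nucleolus and the Cajal body, had the widest spread of this group. It lay at 11.36, 10.99 and 10.45 on intact arrays 1 to 3 and at 11.08, 11.67 and 11.53 in the deficient group. The low value on intact array 3 carried much of the difference of 0.50 (SE 0.28), which was 0.26 without that array and 0.71 without intact array 1. The other probe sets of Nolc1 gave 0.52 and 0.15.

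**Figure D3:**
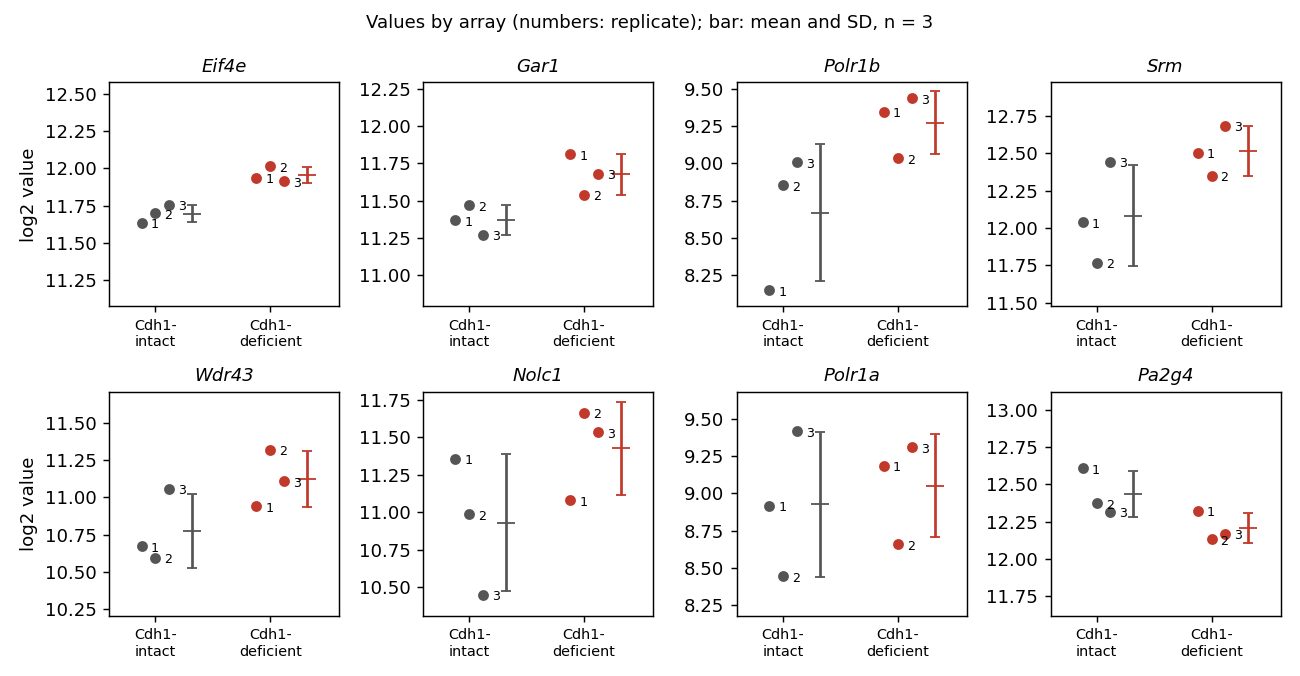
Log2 values of 8 genes by array (points, numbered by replicate) with the group mean and SD (bars, n = 3), each panel spanning 1.5 log2 units. The groups do not overlap for Eif4e, Gar1 and Polr1b, and for Srm, Wdr43, Nolc1, Polr1a and Pa2g4 at least 1 array of a group lies within the range of the other group.

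Other MYC targets in the set serve polyamine synthesis, nuclear transport, DNA repair and iron uptake, and 7 of 8 had a difference above 0. Srm, which encodes spermidine synthase, lay at 12.04, 11.77 and 12.44 on the intact arrays and at 12.50, 12.35 and 12.68 in the deficient group. Intact array 3 lay among the deficient arrays. The difference of 0.43 (SE 0.20) was 0.27 without intact array 2 and 0.61 without intact array 3. Odc1, the first enzyme of the same pathway, went from 12.29 ± 0.09 to 12.33 ± 0.18 (SD, n = 3 each), a difference of 0.03 (SE 0.13). The contrast between these polyamine genes was not tested.

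Rcc1 and Ranbp1 both act on the GTPase Ran, as its exchange factor and as a cofactor of its GTP hydrolysis. Rcc1 went from 10.01 ± 0.18 to 10.29 ± 0.17 (SD, n = 3 each), a difference of 0.28, or 0.19 without intact array 2. Ranbp1 lay at 12.63, 12.62 and 12.98 in the intact group and at 12.81, 12.75 and 12.77 in the deficient group. The deficient values lay between the intact ones, and the difference of 0.03 (SE 0.13) turned to −0.02 without intact array 1 and to −0.03 without intact array 2.

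Pa2g4, a growth-regulating protein also found in pre-ribosomes, had the lowest difference of the set. It lay at 12.61, 12.37 and 12.32 on intact arrays 1 to 3 and at 12.32, 12.13 and 12.17 in the deficient group. The groups overlapped narrowly, at intact array 3 and deficient array 1, and the difference was −0.23 (SE 0.12), or −0.14 without intact array 1. Its other probe sets gave 0.08, 0.11, 0.07 and −0.17, and the mean of all 5 gave −0.03. Apex1, a base excision repair endonuclease, differed by 0.29 (SE 0.20), with its low value (11.34) on intact array 2, and by 0.13 without that array. Its other probe sets gave 0.38 and 0.20. Nme1, a nucleoside diphosphate kinase, differed by 0.0045 (SE 0.10). Tfrc, the transferrin receptor, which is also a marker of red cell precursors, differed by 0.03 (SE 0.15).

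Probe sets of the same gene often disagreed in sign. Of the 32 genes 21 had more than 1 probe set, 72 probe sets in all. Among the 20 genes with 2 or more probe sets at a mean value of 6 or above, 11 had all of them on the same side of 0 and 9 did not, namely Bop1, Ddx21, Dkc1, Ncl, Nop56, Npm1, Pa2g4, Polr1a and Tfrc. The probe sets used were above 0 in 26 of 32, and the others at 6 or above in 21 of 33, with a median of 0.07. Averaging every probe set of each gene, the set's median was 0.04 with 21 of 32 above 0.

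**Figure D4:**
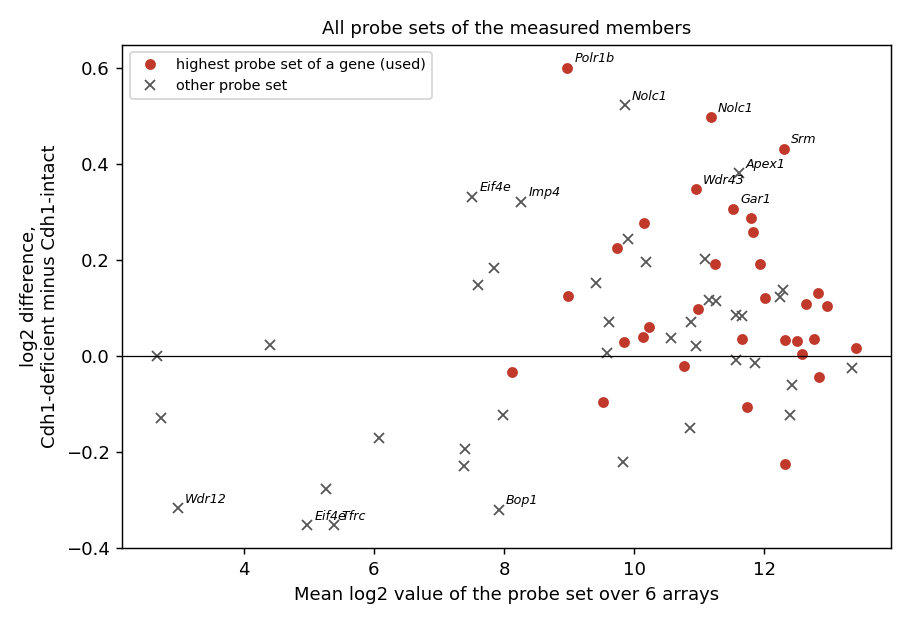
Log2 difference between the groups (y axis) against the mean log2 value over the 6 arrays (x axis) for all 72 probe sets of the 32 measured genes, with the probe set used for each gene as filled points and the others as crosses. The differences of the crosses spread to both sides of 0, and of the 7 probe sets below a mean of 6 there is 1 above 0.

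A wider list of 108 other genes of RNA polymerase I, processome, subunit assembly and exosome was read beside the set. With limma 0 of the 108 passed over all genes, 9 had an unadjusted p under 0.05 (5.50% of all genes did), each with a positive difference, and 80 of 108 were above 0 with a median of 0.15. The groups were apart for 17 of 108 (15.7%, against 11.7% of all genes and 15.3% of genes of like level with the set), 16 upward and 1 downward, where 6.65% and 5.09% of all genes were. The 14 genes of chromosomes 3 and 5 in this list were all above 0, with a median of 0.35, and the other 94 had a median of 0.13 with 66 above 0. These 14 held 6 of the 9 genes with an unadjusted limma p under 0.05, and 7 of the 14 were apart upward. Among genes at or above the median level, 40.5% of 607 on chromosome 5 and 33.6% of 446 on chromosome 3 were apart. Upward these were 240 and 144 genes, and 187 and 109 had a positive difference with an unadjusted limma p under 0.05. In the wider list, 3 of the other 94 genes had such a p. The groups were apart for 10 of these 94 (10.6%), against 10.2% of all genes not on chromosomes 3 and 5. Chromosome 5 as a whole also leaned upward, with 87.0% of 607 genes at or above the median level above 0. Without intact array 2 the wider list had a median of 0.10 with 72 of 108 above 0.

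The smallest p upward in the wider list belonged to Rrp1b, a nucleolar processing factor, with 10.76, 10.84 and 10.84 in the intact group and 11.21, 11.14 and 11.28 in the deficient group (difference 0.40, SE 0.09, adjusted p = 0.849). The groups were apart by 0.30. Next came Sdad1 (0.57, SE 0.14), Nol10 (0.40, SE 0.10) and the helicase gene Ddx51 (0.48, SE 0.12), of which Sdad1 and Ddx51 lie on chromosome 5. Downward the order was Rrp1 (−0.36, SE 0.19), Twistnb, an RNA polymerase I subunit (−0.14, SE 0.11), Rrp7a (−0.24, SE 0.19) and Gtpbp4, a GTPase of large subunit assembly (−0.14, SE 0.12). Rrp1 and Rrp1b, which encode related proteins, had opposite signs, and for both the groups were apart.

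Cytosolic ribosomal protein genes, the protein parts of the ribosome itself, were read near the top of the array scale. Of 26 measured members of a fixed list of 42, 14 were above 0, with a median of 0.00079. The mean level over the 6 arrays was 13 or above for 22 of these 26 genes, against 1 of the 32 genes of the set, where the highest level of any gene was 14.13. Whether the arrays can show a change at such levels was not tested. The other 4, below that level, had differences from −0.39 for Rpl14 to 0.08 for Rpl37. Among them Rps16 had a mean level of 3.34, below the lower quartile of all probe sets on each array (3.75 to 3.83). Of 20 genes of DNA replication and mitosis 16 were above 0 with a median of 0.14, and 12 of the 20 were lowest on intact array 1. Their means were 10.71, 10.92 and 11.07 in the intact group and 11.07, 11.01 and 11.11 in the deficient group, so that the groups overlapped.

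**Figure D5:**
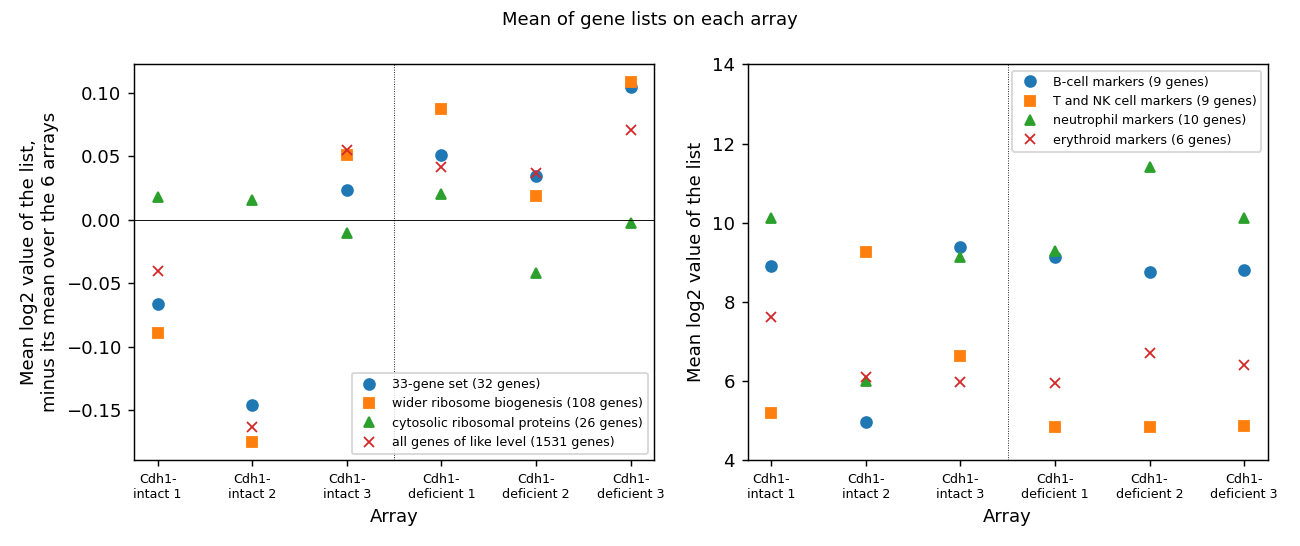
Left, mean log2 value of each list on each array after subtracting the list's mean over the 6 arrays; right, mean log2 value of markers of 4 blood cell types on each array. The set, the wider list and genes of like level are all lowest on intact array 2, where B-cell markers (4.97) are low and T and NK cell markers (9.26) are high, while ribosomal protein genes are mostly read near the top of the array scale.

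Single genes varied within groups. The median SD over the 32 genes was 0.18 among intact and 0.12 among deficient arrays, and 0.21 and 0.15 for genes of like level. In either case the deficient arrays were closer to each other, a contrast that includes intact array 2 and was not tested.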

How the data were processed

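The authors deposited log2 values made with RMA for 45101 probe sets on each array, per the submitters' processing notes, which name no version. RMA corrects background, quantile-normalizes and summarizes each probe set, so a change of total RNA per cell cannot be seen, and probe sets are not on a common scale of amounts. Array medians lay between 5.07 and 5.13. The small number of arrays limits the precision.

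Names came from the platform annotation, in which 34945 probe sets carried 1 symbol (18193 genes). No level filter was used. Chromosomes were taken from a RefSeq table of GRCm38.p6; the arrays' own build is not known here. Cirh1a and Utp11l of the wider list were updated by gene ID.

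The fit used limma 3.58.1 under R 4.3.3, which the series description names for this purpose, on all 18193 genes (lmFit, eBayes, two-sided, no covariate) with Benjamini-Hochberg adjustment and a threshold of 0.05. It was tested on simulated data. The 10 splits of 3 against 3 arrays allow no permutation p below 0.1, so none was used.

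The set and all lists were chosen with earlier results of these data known and got counts and medians, not list tests. Values by array are given for the 5 genes of smallest p in each direction, the 5 of highest mean and the 5 of widest range, and of the wider list the 4 of smallest p in each direction are named. The comparison with genes of like level was chosen after seeing the data. Alternatives changed the normalization, the level filter, the choice of probe set, the variance model, array weights, the replicate block, chromosomes 3 and 5, and left out single arrays.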

Additional observations from a re-analysis of the deposited data

How the results depend on the processing

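No gene of the set or of the wider list passed the limma threshold in any of the 16 alternatives, and the lowest adjusted p in the set ran from 0.435 (without intact array 3) to 0.999 (without deficient array 3). With 1 array left out the set's median ran from 0.033, without intact array 2, to 0.15, without intact array 3. In the other 10 alternatives it ran from 0.04 to 0.11, with 19 to 27 genes above 0 (19 of 26 measured without shared-target probe sets). The number of genes with groups apart was 1 of 30 without chromosomes 3 and 5, where 10.2% of all genes were apart. With 1 array left out it ran from 3 to 15: it was 5, 4 and 15 without intact arrays 1, 2 and 3, and 9, 7 and 3 without deficient arrays 1, 2 and 3, where 22.4%, 21.4%, 28.4%, 23.3%, 19.9% and 17.3% of all genes were apart, since fewer arrays separate more easily. Of 267 differences of the 17 genes given by array 252 kept their sign and 11 genes kept it in every alternative run. The alternatives of the level filter, the variance model, the replicate block and chromosomes 3 and 5 leave each difference unchanged by design. Those could not turn a sign, and their differences are among the 252. The sign turned for Npm1 (−0.0046) and Polr1a (−0.065) when all probe sets of a gene were averaged and for Rrp12 (0.058) with array weights. Over the arrays left out, Eif4a1 ran from −0.10 to 0.025, Npm1 from −0.039 to 0.050, Pes1 from −0.10 to 0.081, Polr1a from −0.12 to 0.37, Ranbp1 from −0.026 to 0.15 and Rrp12 from −0.27 to 0.14. Apart from the arrays and probe sets named, the cause was not tested.

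With the replicate number as a replicate block, 0 of 32 genes passed and the lowest adjusted p was 0.837. The median of 0.10 is the same by design, since each block holds an array of either group. Deviations of same-numbered arrays from their group means correlated across genes at −0.14, 0.01 and 0.04, so the numbers were not taken to pair mice.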
